A study of Mus musculus with 21 samples.

Results

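The contacts of the Hba-a1 promoter in mouse fetal liver were measured in 2 libraries by 4C-seq, a form of chromosome conformation capture that reads all partners of 1 fragment, and 1 of them was amplified from less template. The 2 libraries were taken by their labels out of 21 in the series: both have the alpha-globin Hba-a1 promoter as viewpoint, liver as tissue, DpnII as first and Csp6I as second restriction enzyme. The description of the second library states a 1/16 template for the PCR. No dilution is stated for the first, which is called the full template library here. Both came from C57BL/6 fetuses at 14.5 days post coitum, with the livers of several embryos pooled and cells fixed with 2% formaldehyde for 10 minutes. The fetal brain library of the same viewpoint, with the same strain, stage and enzymes and no stated dilution, was set beside them. Each group held 1 library. Without replicates, the values are given as descriptions, with no test and no p-value. A 4C profile holds no expression values, so the labelled tissue could not be checked against marker genes.

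In 4C-seq, chromatin is fixed, cut and ligated, so that fragments lying near the viewpoint in the nucleus become joined to it. The joined fragments are then amplified by inverse PCR with primers on the viewpoint. Each ligated copy of the viewpoint can report 1 partner, so the amount of template limits how many different partners an amplification can sample. Hba-a1 encodes an alpha-globin chain of haemoglobin, and fetal liver is the main site of red cell formation in the fetus, whereas the globin genes are silent in brain. HS-26, a DNase hypersensitive site, is the main enhancer of the alpha-globin genes, and HS-31, HS-21, HS-12 and HS-8 are further hypersensitive sites of the same regulatory region. The comparison asks how far a contact profile changes when the template for the PCR is reduced.

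The promoter after which the viewpoint is named is shown by the 130 bases that precede the start of Hba-a1. They lie on the plus strand at chr11:32283542-32283671 (RefSeq, GRCm38.p6), with the CCAAT box and the TATAA sequence in capitals.
Hba-a1: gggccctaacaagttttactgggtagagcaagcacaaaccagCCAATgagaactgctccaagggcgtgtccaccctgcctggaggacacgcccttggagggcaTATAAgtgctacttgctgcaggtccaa
The 300-base promoter windows of Hba-a1 and its neighbour Hba-a2, which also encodes an alpha-globin chain, were identical at 297 of 297 bases when set 3 bases apart. CCAAT, searched on both strands, occurred in 37.4% of the 32851 mouse promoter windows of that length and TATAA in 24.9%. GATC, the sequence cut by DpnII, occurred in 48% of the windows and GTAC, cut by Csp6I, in 35.8%. Neither lay in the windows of Hba-a1 and Hba-a2. In the order of the gene table, Snrnp25, Rhbdf1, Mpg, Nprl3 and Hba-x precede Hba-a1, and Hbq1b, Hba-a2, Hbq1a and Sh3pxd2b follow it. The profiles themselves are in another build, mm9, so no gene was placed on them. Nor was the viewpoint fragment placed on the sequence shown.

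The deposited signal is given every 1000 bp and is relative to the level near the viewpoint, where some middle values were exactly 1. It is smoothed over 48 running windows of 2 to 49 kb, and each window has a middle value with a lower and a higher one. The 5 kb window was used unless another is named. The viewpoint was set to 32184894 on chromosome 11 (mm9), the median of the highest positions of the 3 Hba-a1 promoter libraries, which lay at most 3 kb from it. HS-26, placed in the same way from the libraries that used it as viewpoint, lay at 32149250, 35.6 kb away. Positions of the 2 liver libraries were matched within 500 bp, since their grids did not coincide. This left 326 matched positions more than 10 kb from the viewpoint. Read numbers were not given in the sources used here. Depth is unknown, and the lower and higher window values are the only spread that the profiles carry.

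The 2 liver files also differed in which positions held any signal. In the 2 kb window, a position whose higher value is 0 has no signal anywhere in its window. There were 80 such positions of 349 in the 1/16 template library and 80 in brain, and these were the same 80. The liver and brain libraries of HS-26 shared the same 78. In the full template library there were 38. All 38 were among the 78 of the HS-26 libraries, which lie on the same grid, and 37 were among the 80 of the 1/16 template library. At 33 positions the full template library had signal while the other 4 alpha-globin libraries had none. The highest of these were at 32187000, 2.106 kb from the viewpoint, with a signal of 0.818, and at 32152000, 2.75 kb from the centre of HS-26, with 0.736. The title of the full template library also carries a longer number than that of the 1/16 template library, and whether it is a pool of runs was not given in the sources used here. The amount of template and these differences between the files cannot be told apart.

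The overall agreement in level was limited. Each library was divided by its mean beyond 10 kb, a pseudocount of 10% of that mean was added, and the log2 ratio of full to 1/16 template was taken at each position. The ratio had a median of -1.55 and an SD over positions of 1.04. The 2 libraries were within 2-fold of each other at 31.9% of the 326 positions. The exact binomial 95% interval of this share was 26.9 to 37.3%; it treats positions as independent, which overlapping windows are not. The full template library was more than 2-fold higher at 8 positions (2.45%) and more than 2-fold lower at 214 (65.6%). The split depends on the scale. With no scaling it was 1.53% higher and 69.6% lower. With each library divided by its median, which moved the median log2 ratio from -1.55 to 2.57, it was 100% higher and 0% lower. The pseudocount stayed at 10% of the mean there, which exceeds the full template median. Even positions without full template signal thus counted as higher, so this split does not measure agreement. The SD of 1.04 cannot change with the scale, which shifts all log2 ratios by the same amount. The intervals between lower and higher window values overlapped at 83.7% of positions.

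The same measures against brain gave a scale for this difference. Full template and brain were more than 2-fold apart at 24 positions where liver was higher (7.36%) and 249 where it was lower (76.4%), with an SD of 1.36 and overlapping intervals at 66.9%. The 1/16 template library was higher than brain at 26 positions (7.98%) and lower at 81 (24.8%), with an SD of 0.97 and overlapping intervals at 97.5%. By level, the 1/16 template library was thus within 2-fold of brain at 67.2% of positions, against 31.9% for the other liver library. By correlation the ranking was the other way. Across positions, the Spearman correlation was 0.817 between the liver libraries, 0.765 between full template and brain and 0.740 between 1/16 template and brain. Pearson's r, taken on the log2 signal with the same pseudocount, was 0.861, 0.733 and 0.729. These are descriptions over 326 positions that share windows and the decay with distance. Of the 33 positions in the top 10% of each library, the liver libraries shared 26 (78.8%), full template and brain 21 (63.6%), and 1/16 template and brain 22 (66.7%).

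**Figure D1:**
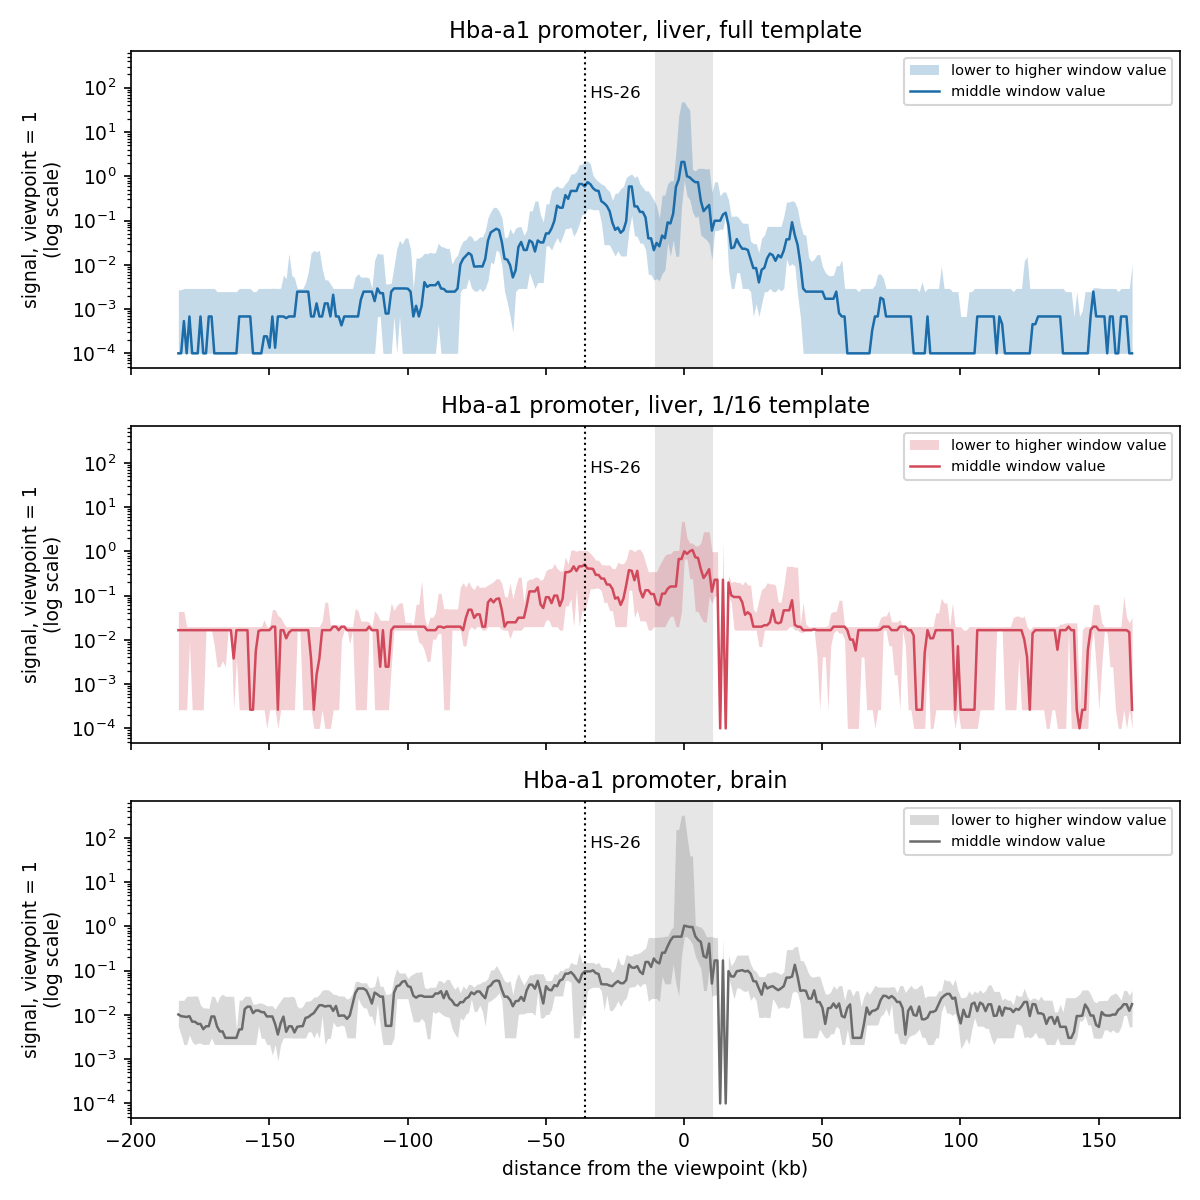
Smoothed signal (log scale, viewpoint set to 1 by the authors) against distance from the viewpoint in kb for the 3 Hba-a1 promoter libraries, in the 5 kb window. Lines are middle window values, bands run from the lower to the higher value, values of 0 are drawn at 0.0001, the grey area within 10 kb was left out, and the dotted line marks HS-26. Both liver libraries rise at HS-26, and far from the viewpoint the 1/16 template profile runs flat near 0.0166 while the full template profile falls below 0.001.

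The libraries differed most in how their low values were filled. At 5 kb the full template library was empty at 69 of 326 positions (21.2%), the 1/16 template library at 3 (0.920%) and brain at 2 (0.613%). The commonest signal above 0 was 0.000681 with full template, held by 72 positions (22.1%). It was 0.0166 with 1/16 template, held by 41.1% of positions, a value 24.3 times as high. In brain it was 0.00303, held by 11 positions (3.37%). The 1/16 template profile thus ran flat over long stretches, the longest of 20 positions from 32002000 to 32021000. Over that stretch the full template signal had a median of 0 and a highest value of 0.000681, and brain had a median of 0.00625.

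The 1/16 template file also held the fewest distinct values. Over all columns and windows the full template file held 1001 distinct values above 0, brain 1070 and the 1/16 template file 494. Positions that hold a library's commonest value have no order among themselves. The mean signal beyond 10 kb was 0.0414 with full template, 0.0498 with 1/16 template and 0.0307 in brain. The medians were 0.000793, 0.0166 and 0.0175. The 1/16 template median was that library's commonest value, at or below which 55.5% of its positions lay.

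The empty positions of the full template library fell where the 1/16 template library was low. All lay at least 59.1 kb from the viewpoint, 20 on the HS-26 side and 49 on the other side. At 68 of the 69 (98.6%) the 1/16 template signal was at or below its commonest value, against 44% of the 257 filled positions. The 2 longest empty runs, of 10 positions each, spanned 32301000 to 32310000 and 32322000 to 32331000. Over the first of these the 1/16 template signal had a median of 0.0166, which was also its highest value there. Over the second its median was 0.0112 and its highest value 0.0199.

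**Figure D2:**
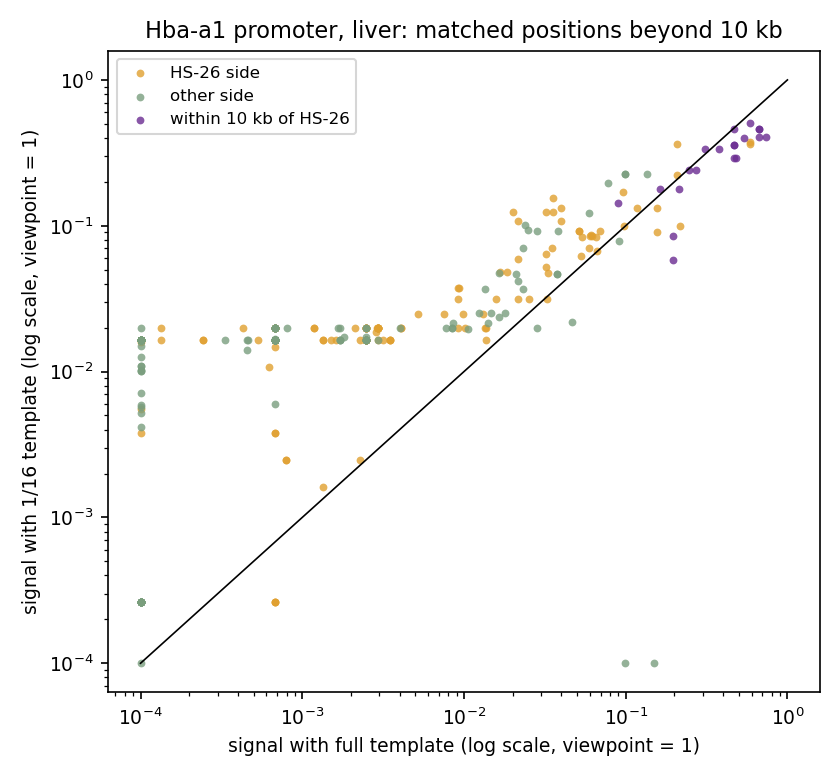
Signal of the 1/16 template library against that of the full template library (both on a log scale, relative to the viewpoint) at the 326 matched positions beyond 10 kb, in the 5 kb window, with values of 0 drawn at 0.0001 and the line of equality. Points within 10 kb of HS-26 lie at the upper right, and a horizontal band at the commonest 1/16 template value of 0.0166 spans full template signals from 0 upward.

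The share of positions within 2-fold was larger where signal was higher. The SD of the ratio, with positions unfilled in the 1/16 template library included, was not smaller. At the 181 positions where the 1/16 template library was at or below its commonest value, 16.6% were within 2-fold, the median log2 ratio was -1.89 and the SD 0.96. At the positions above it, 51% were within 2-fold, the median was -0.79 and the SD 0.99. Taking only the 66 positions that reached the library mean in at least 1 of the liver libraries, 45 (68.2%) were within 2-fold, 8 were higher with full template and 13 lower, the median was 0.03 and the SD 1.26. Of these 66, 50 reached the mean with full template, 63 with 1/16 template and 47 with both. Both the 181 and the 66 include the positions 13.1 and 15.1 kb from the viewpoint on the other side. There the 1/16 template window held no signal, while full template had 0.0991 and 0.150. The SDs without these positions were not computed, so whether the spread depends on signal was not tested.

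By the share of positions more than 2-fold apart, the liver libraries differed more beyond 50 kb from the viewpoint than within it. The SD of the log2 ratio within bins did not follow this order. On the HS-26 side it was 0.58 at 25 to 50 kb and 0.56 at 150 to 200 kb. On the HS-26 side, at 10 to 25 kb, the mean signal was 0.164 with full template, 0.168 with 1/16 template and 0.105 in brain. At 25 to 50 kb, the bin that holds HS-26, it was 0.350, 0.266 and 0.0671. In these bins the liver libraries were more than 2-fold apart at 26.7% of 15 positions and 16.0% of 25 positions. At 50 to 100 kb the means were 0.0164, 0.0406 and 0.0311, with full template now below brain. From 100 to 150 kb they were 0.00145 with full template, 0.0149 with 1/16 template and 0.0180 in brain. From 150 to 200 kb they were 0.000217, 0.0148 and 0.00785, and 90.9% of positions were more than 2-fold apart, all lower with full template. In mean signal both liver libraries therefore exceeded brain out to 50 kb on this side. At 10 to 25 kb this held for the mean of full template but not for its median, which was 0.0966 against 0.116 in brain. Beyond 100 kb the mean of the 1/16 template library was much nearer to brain than that of the full template library.

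On the other side the full template library had the lowest mean in every distance bin, although not at every position. At 10 to 25 kb the means were 0.0612 with full template, 0.105 with 1/16 template and 0.0923 in brain. In this bin 46.7% of positions were more than 2-fold apart between the liver libraries. The SD of their log2 ratio was 2.11, the largest of any bin, and the 1/16 template library was empty at 13.3% of positions. At 25 to 50 kb they were 0.0168, 0.0266 and 0.0468, with 40% of positions more than 2-fold apart between the liver libraries. At 50 to 100 kb they were 0.000536, 0.0148 and 0.0150, and 92% of positions were apart. At 100 to 150 kb they were 0.000336, 0.0123 and 0.0115. Beyond 50 kb on this side the bin means of the 1/16 template library lay near those of brain, while those of the full template library lay more than 10 times lower. At 16 positions there the 1/16 template signal was at most 0.000264, against 0.00642 to 0.0246 in brain, and the full template library was empty at all 16.

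**Figure D3:**
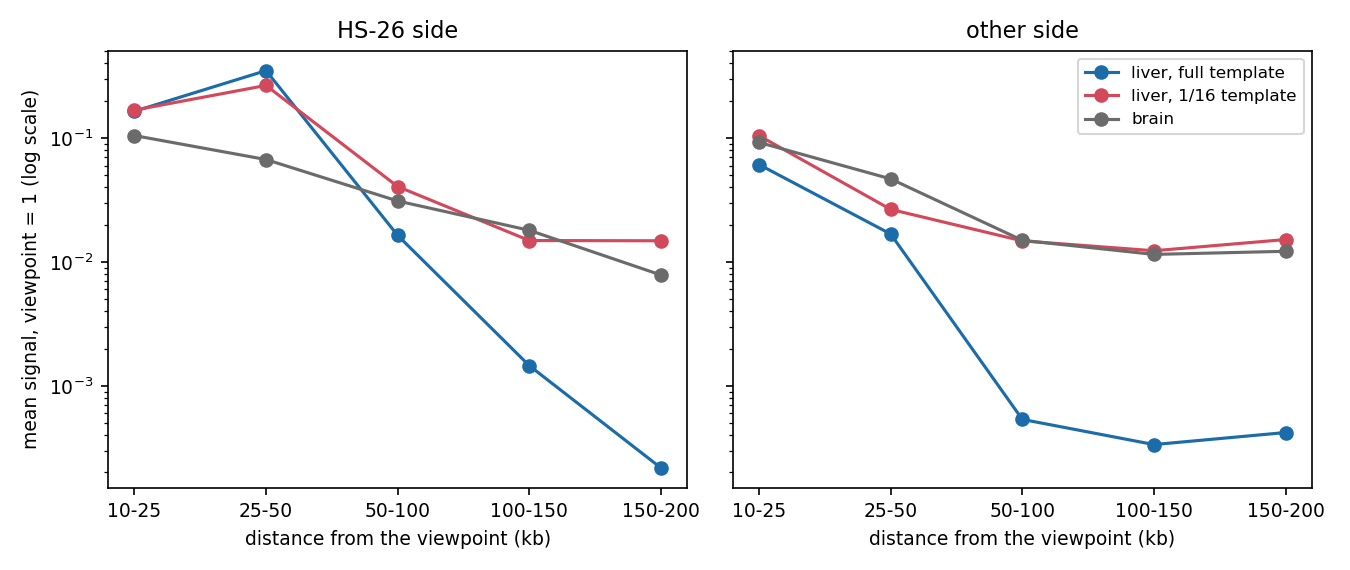
Mean signal (log scale, relative to the viewpoint) by distance from the viewpoint in kb on the HS-26 side and the other side, for the 3 Hba-a1 promoter libraries in the 5 kb window. The liver libraries lie together out to 50 kb on the HS-26 side, at 0.350 and 0.266 in the bin of HS-26, and separate beyond 50 kb on both sides, where the 1/16 template library levels out between 0.0123 and 0.0406.

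HS-26 stood out in both liver libraries. Within 5 kb of its centre (chr11:32144250-32154250, mm9) the 11 matched positions had signals of 0.465 to 0.736 with full template, with a median of 0.539. With 1/16 template they ran from 0.293 to 0.503, with a median of 0.407, and in brain from 0.0545 to 0.102, with a median of 0.0881. The full template signal was higher than the 1/16 template signal at 11 of 11 positions, and the lower-to-higher intervals of the 2 overlapped at all 11. Those of full template and brain overlapped at 6 of 11. The intervals of 1/16 template and brain overlapped at all of these positions except those about -3 and 4 kb from the centre. At 32152000 and 32148000, within this target, only the full template library of the alpha-globin libraries had signal in the 2 kb window. The share of its excess that these positions carry was not tested. The ranges of the middle values of both liver libraries lay wholly above that of brain. At the target as a whole the mean signal was 0.574 with full template, between mean lower and higher values of 0.135 and 1.51. It was 0.404 with 1/16 template, between 0.0926 and 0.918.

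Observed over expected (O/E) compares the mean within 5 kb of a target with a decay that only falls with distance, fitted to both sides of the same library. O/E at HS-26 was 3.20 with full template, 2.5 with 1/16 template and 1.31 in brain. On the log2 scale the full template library was 0.35 above the 1/16 template library, which was 0.93 above brain. Over all 325 positions where both could be computed, the difference of log2 O/E between the liver libraries had an SD of 0.45, so HS-26 differed between them by less than this spread. The same SD was 0.66 for 1/16 template and brain and 0.95 for full template and brain, and HS-26 differed by more than it in both pairs, by 0.93 and 1.29. The order full template, 1/16 template, brain held in 48 of 48 windows. The excess of full over 1/16 template ran from 0.45 at 2 kb to 0.07 at 49 kb, and that of 1/16 template over brain from 1.18 to 0.57 in the same windows. With a power-law decay in place of the monotone one the first difference was 2.62.

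**Figure D4:**
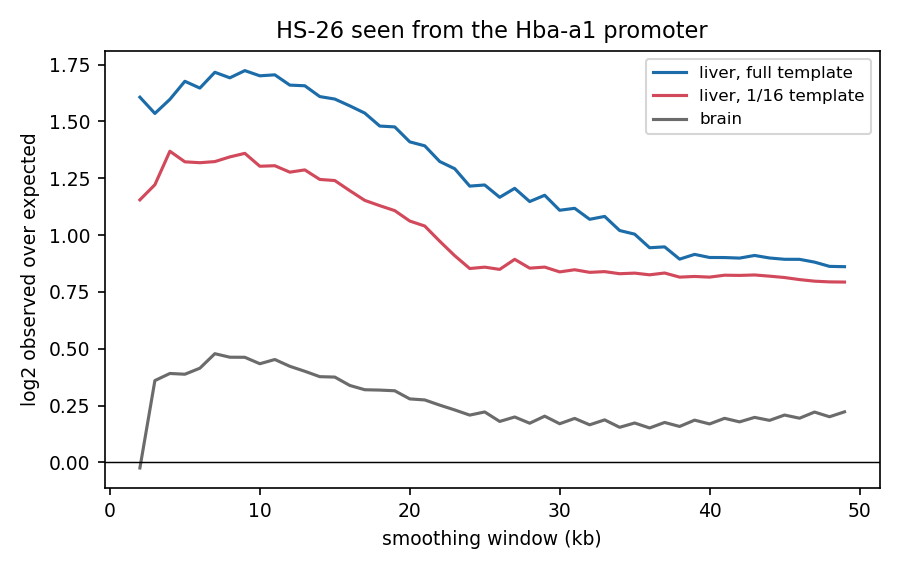
Log2 O/E at HS-26, seen from the Hba-a1 promoter, against the smoothing window in kb for the 3 libraries; 0 is the level of the fitted decay. The full template line is the highest and the brain line the lowest in each of the 48 windows, and the gap between the liver lines narrows from 0.45 to 0.07.

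The peak itself kept its place. Beyond 20 kb on the HS-26 side, the highest position at 5 kb was 0.75 kb from the centre of HS-26 with full template, at a signal of 0.736 and a width at 50% of its height of 11 kb. With 1/16 template it was -0.356 kb away, toward lower coordinates, at 0.503 and 13 kb wide, and in brain 2.644 kb away, at 0.102 and 15 kb wide. The height of 0.736 with full template was also that library's 2 kb value at 32152000, where the other 4 alpha-globin libraries had no signal. The highest position stayed within 5 kb of HS-26 in 33 of 48 windows with full template, 31 with 1/16 template and 20 in brain. In the 49 kb window it lay about 15 kb closer to the viewpoint in all 3 libraries, near the 20 kb limit of the search. From HS-26 in liver, the Hba-a1 promoter had an O/E of 2.30.

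The other hypersensitive sites were placed by the distances in their names. HS-31 had an O/E of 2.67 with full template, 2.43 with 1/16 template and 1.27 in brain. HS-21 had 2.16, 1.73 and 1.10. Both windows adjoin the centre of HS-26 and overlap its window. HS-12 had 1.14, 1.21 and 1.02, and HS-8 had 1.25, 1.26 and 1.15; these windows overlap each other. The log2 difference of full and 1/16 template was 0.14 at HS-31, 0.32 at HS-21, -0.09 at HS-12 and -0.02 at HS-8, each under the SD of 0.45. That of 1/16 template and brain was 0.93, 0.66, 0.26 and 0.14 in the same order. At the 2 sites nearest the viewpoint no pair of the 3 libraries differed by more than 0.26.

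Local maxima of O/E lay at like places in the liver libraries. With full template they lay at 32149000 (O/E 3.14), 32113000 (2.36) and 32170000 (1.2). With 1/16 template they lay at 32146894 (2.53), 32112894 (1.76) and 32169894 (1.23). Each of the 3 had a partner within 10 kb in the other liver library. In brain each had one as well, but that of the HS-26 maximum was at 32139894, -9.356 kb from HS-26, and at 20 kb only 1 of 2 maxima of each liver library had a partner in brain. All 3 are on the HS-26 side of the viewpoint. The maximum at 32113000 lies -36.25 kb from HS-26, away from the viewpoint, with a signal of 0.0135 with full template and 0.0199 with 1/16 template.

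Positions with large differences were taken at least 20 kb apart among those that reached the mean of either library. By this choice 4 were more than 2-fold higher with full template and 3 with 1/16 template. The 2-fold limit was set on the log2 ratio of scaled signals with the pseudocount, whereas the signals given here are unscaled. The first was 32200000, 15.1 kb from the viewpoint on the other side, with a signal of 0.150 against 0 with 1/16 template and 0 in brain. The 1/16 template window there holds no signal, its higher value being 0 as well. The same held in brain and in the liver and brain libraries of HS-26. The second, 32140000, lies 9.25 kb from HS-26 and had 0.195 against 0.0584. The others were 32225000, with 0.0466 against 0.0218, and 32170000, with 0.157 against 0.0910 and a scaled log2 ratio of 1.01. In the opposite direction, 32131000 had 0.02 with full template and 0.124 with 1/16 template. It was followed by 32174000, with 0.0214 and 0.108, and 32202000, with 0.0237 and 0.101. At these 7 positions the intervals of the 2 libraries overlapped at all but 32200000.

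Wider smoothing raised the rank correlation of the liver libraries, while the share within 2-fold stayed under 50%. The SD of the log2 ratio between the liver libraries was 1.56 at 2 kb, fell to its lowest, 0.90, at 10 kb, and was 0.96 in the widest window. The share within 2-fold ran from 30.8% at 6 kb to 46.2% at 2 kb. The Spearman correlation was 0.616 at 2 kb and 0.892 at 10 kb, and reached 0.942 in the widest window, where it was 0.924 for 1/16 template and brain and 0.908 for full template and brain. The lower-to-higher intervals overlapped at 77.2% of positions at 2 kb and at 100% from 40 kb. Of the top 10% of positions, the liver libraries shared 23 of 33 at 2 kb, 29 of 32 at 10 kb and 30 of 31 at 20 kb. At 20 kb full template and brain shared 15 of 31, and 1/16 template and brain 16 of 31. Empty positions of the full template library persisted, at 15.4% of 311 positions at 20 kb, where the other 2 libraries had none.

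The contrast between level and correlation held across windows. In 48 of 48 windows the liver libraries were less often within 2-fold of each other than 1/16 template and brain were. In the narrowest windows 1/16 template and brain share positions without signal, where their ratio is 1 by construction. There were 75 of 329 such positions at 2 kb, 2 of 326 at 5 kb and 0 at 6 kb. In 47 of 48 windows the liver libraries also had the larger SD. At 5 kb it was 1.04 against 0.97. Without positions empty in either liver library it was 0.93, a step not taken for 1/16 template and brain. In 46 of 48 windows the Spearman correlation was higher between the liver libraries, and r was higher in 47 of 48. The SD between the liver libraries was below that of full template and brain in 48 of 48.

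**Figure D5:**
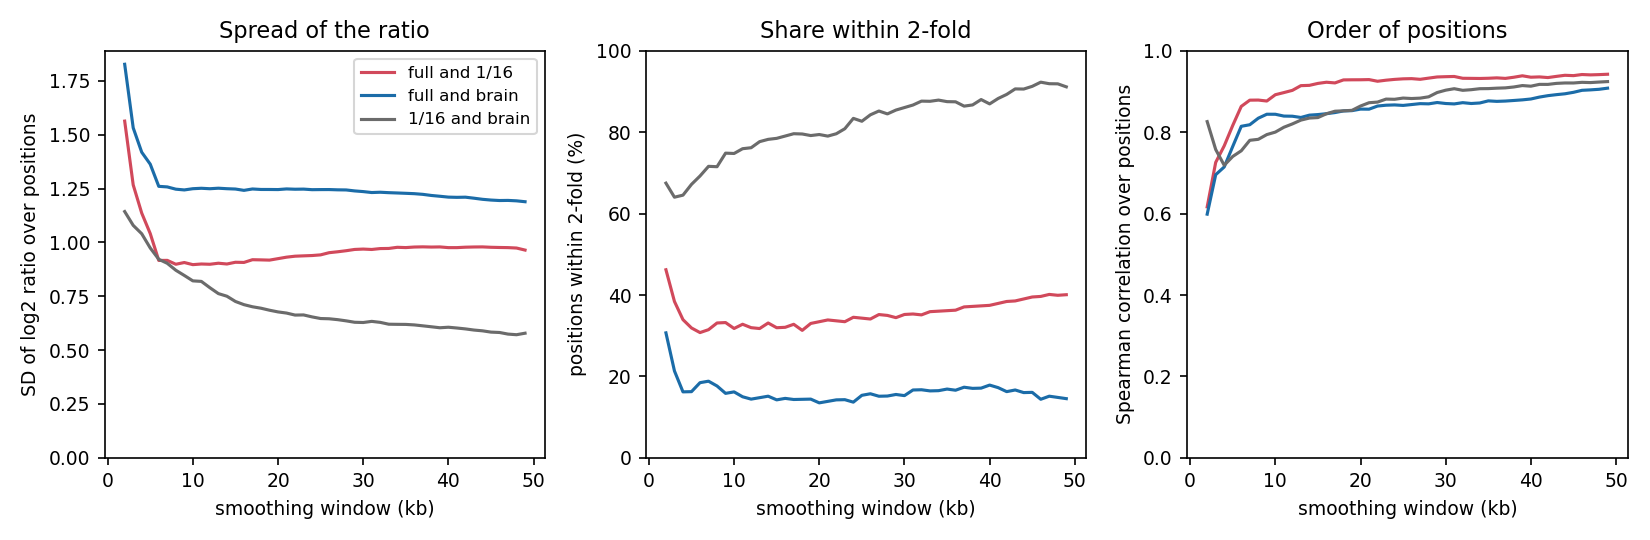
SD of the log2 ratio, share of positions within 2-fold (%) and Spearman correlation over matched positions beyond 10 kb, against the smoothing window in kb, for the 3 pairs of Hba-a1 promoter libraries. The pair of 1/16 template and brain has the highest share within 2-fold in all windows, while the pair of liver libraries has the highest Spearman correlation in 46 of 48.

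The signal was more concentrated with full template. The 20 positions within 10 kb of HS-26, 6.13% of the 326, held 61.2% of the signal beyond 10 kb with full template, 38.2% with 1/16 template and 14.7% in brain. With full template 50% of the signal lay in 12 positions, with 1/16 template in 25 and in brain in 55, and 90% of it in 49, 194 and 203. After the commonest value of each library was subtracted, a step added after the values were seen, the share near HS-26 was 61.9% with full template, 51.4% with 1/16 template and 15.6% in brain. The step was not alike across libraries. At or below the subtracted value lay 49.4% of positions with full template, 55.5% with 1/16 template and 3.99% in brain.

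The balance of the sides moved in the same direction. Over distances up to 162.106 kb, 89.7% of the signal lay on the HS-26 side with full template, 76.8% with 1/16 template and 59.4% in brain, so the liver libraries differed by 13 percentage points. Without the positions within 10 kb of HS-26 the shares were 73.5%, 61.7% and 52.2%. After the same unequal subtraction of the commonest value they were 90.1%, 86.3% and 60.3%, and the difference between the liver libraries was 3.78 points. Up to 50 kb it was 8.19 points.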

How the data were processed

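The deposited files hold a signal, normalized and smoothed by the authors, with 48 running windows and 3 columns a window, per the file names and values; the submitters' processing notes name the build mm9. The aligner, filters, read numbers and the quantiles of the lower and higher columns were not given in the sources used here. The members and lists were chosen with earlier results of these data known. Window sizes were read from the unfilled ends of the columns. Positions were matched within 500 bp, those within 10 kb of the viewpoint left out, and signals divided by the library mean with a pseudocount of 10% of it. O/E divided the mean within 5 kb of a target by a monotone decay (scikit-learn 1.9.0). Positions under 1e-09 counted as empty. Named positions were the viewpoint, the hypersensitive sites, up to 5 maxima of O/E above 1 per library, 20 kb apart, with a mean over the target width in the top 25%, and the 5 largest ratios in each direction, where there were as many. Alternatives changed the window, column, pseudocount, scale, decay and excluded distance. Tools were Python 3.11.15, numpy 2.4.6 and pandas 2.3.3.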

Additional observations from a re-analysis of the deposited data

How the results depend on the processing

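With 1 library per group the spread between replicates is unknown, positions share windows, and values at a library's commonest level have no order. No paired analysis was possible because the result comes from no test. The SD of the log2 ratio, 1.04, lay between 0.81 and 1.54 in 15 of 18 alternatives, of which 2, the other scales, could not change it; it was 1.56 in the 2 kb window, 2.06 with a pseudocount of 1% of the mean and 0.52 with 50%. The share within 2-fold, 31.9%, moved most: to 46.2% in the 2 kb window, 40.1% in the 49 kb window, 57.4% in the lower and 71.2% in the higher column, 95.4% with a pseudocount of 50%, 0% with scaling to the median, 79.8% after division by each library's decay, and 51% at positions above the commonest 1/16 template value, an alternative chosen after seeing the data. The log2 O/E difference at HS-26, 0.35, was positive in all 15 alternatives, from 0.07 in the 49 kb window to 2.62 with a power-law decay; it was 0.24 with a decay from the HS-26 side only and 0.61 as relative signal. The difference in side share, 13 points, was positive in all 12 alternatives: 8.19 up to 50 kb, and 3.78 after subtraction of each library's commonest value, also chosen after seeing the data. The cause of these movements was not tested.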

Other observations

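Within 10 kb of the viewpoint, which the comparisons left out, the profiles also differed. The highest middle value at 5 kb was 2.11 with full template, 1.07 with 1/16 template and 1.04 in brain, and the highest of the higher window values was 47.8, 4.75 and 324. The medians over these positions were 0.225, 0.307 and 0.479. Around the viewpoint, the side away from HS-26 had the higher median in all 3 libraries: 0.507 against 0.0884 with full template, 0.550 against 0.152 with 1/16 template, and 0.470 against 0.417 in brain.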
